A study of Mus musculus with 27 samples.

Results

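The 9 genes described here, *Stab1*, *Stab2*, *Lyve1*, *Fcgr2b*, *Clec4g*, *Kdr*, *Flt4*, *Pecam1* and *Oit3*, are markers of the liver sinusoidal endothelium. They were taken by symbol from the table of counts per gene, where each had 1 row among 23191 gene symbols. Their levels were compared in whole liver of male C57BL/6J mice that were 8 weeks old when the diets began and were sampled after 4 weeks. On chow the HGFAC-KO group had 6 animals and the littermate controls 7, and on a diet rich in fat and sucrose (HF/HS) each genotype had 7. The HGFAC-KO mice carry a whole-body deletion in *Hgfac* that starts within exon 1 and takes exon 2 whole, which encodes a secreted protease that activates hepatocyte growth factor (HGF), so every cell of the liver carries the deletion. The comparisons ask how the deletion and the diet each relate to the RNA of these cells in the liver.

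Liver sinusoids are lined by a fenestrated endothelium that lacks a continuous basement membrane and lets plasma reach the hepatocytes. These cells clear macromolecules from the blood through scavenger and Fc receptors, and vascular endothelial growth factor (VEGF) signaling is known to maintain their specialized state. HGF is made in the liver mainly by stellate and endothelial cells and acts on hepatocytes through the receptor MET. Some of the markers are also made elsewhere, as *Pecam1* is in leukocytes and platelets, *Fcgr2b* in B cells and macrophages, *Stab1* in macrophages, and *Lyve1* and *Flt4* in lymphatic vessels. In RNA of whole liver, fewer cells of a type and less RNA per cell cannot be told apart.

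Total counts per library ran from 36056177 to 57298657, and the counts of the 9 markers from 216 (*Lyve1*) to 3686 (*Stab1*). *Hgfac* ran from 183 to 219 CPM (counts scaled to library size with the TMM factors of edgeR) in the controls on chow and from 65.4 to 84.5 in the HGFAC-KO mice on chow. On HF/HS the controls had 247 to 296 and the HGFAC-KO mice 81.8 to 101. Every HGFAC-KO mouse lay under every control of its diet, and the source of the remaining counts was not tested. No library matched another of its group within sampling noise, with a lowest chi-square per gene of 17.9. HGFAC-KO mouse 1 on chow stood apart, with 87.2 to 113 against the other mice of its group (at most 66.7 among them), and control 7 on HF/HS reached 186.

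The promoters of the markers are shown because most of the 9 genes varied together from mouse to mouse. RefSeq entries of build GRCm38.p6 were at hand for 6 of the 9 (*Stab1*, *Stab2*, *Clec4g*, *Kdr*, *Flt4*, *Fcgr2b*). The 4 printed here are those with upstream bases outside the GENCODE model of the gene, and only those bases are printed. Each is on the minus strand and read 5′ to 3′ toward the start, and capitals mark GGAA or its complement TTCC, the core letters that ETS factors of endothelial cells bind. *Kdr* (chr5:75978459-75978705, cut to 247 bases) held 4 matches, *Clec4g* (chr8:3720652-3720901) 5, *Stab2* (chr10:87008026-87008192, cut to 167 bases) 2 and *Stab1* (chr14:31168642-31168891) 6.
Kdr: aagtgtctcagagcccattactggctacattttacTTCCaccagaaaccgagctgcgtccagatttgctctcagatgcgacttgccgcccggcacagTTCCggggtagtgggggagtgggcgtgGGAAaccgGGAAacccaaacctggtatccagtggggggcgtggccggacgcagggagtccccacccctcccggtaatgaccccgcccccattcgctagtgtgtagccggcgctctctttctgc
Clec4g: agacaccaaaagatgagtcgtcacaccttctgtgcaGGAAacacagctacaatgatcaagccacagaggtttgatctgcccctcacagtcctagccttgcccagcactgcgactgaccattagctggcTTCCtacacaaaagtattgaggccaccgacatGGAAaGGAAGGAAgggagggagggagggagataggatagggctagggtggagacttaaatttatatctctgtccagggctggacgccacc
Stab2: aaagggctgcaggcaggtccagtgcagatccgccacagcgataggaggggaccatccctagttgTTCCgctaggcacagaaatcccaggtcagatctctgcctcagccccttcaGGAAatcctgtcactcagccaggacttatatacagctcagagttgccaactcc
Stab1: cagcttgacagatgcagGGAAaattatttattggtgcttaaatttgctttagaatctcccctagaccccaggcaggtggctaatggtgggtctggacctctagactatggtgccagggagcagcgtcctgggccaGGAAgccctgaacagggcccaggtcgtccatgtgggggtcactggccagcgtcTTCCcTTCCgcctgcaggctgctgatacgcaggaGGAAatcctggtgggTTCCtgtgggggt
Over the full 250 bases before the start, all 6 promoters held GGAA on either strand, with 2 to 6 matches each. The share of all 32851 mouse promoters with at least 1 match in that window was 93.4%, with a median of 3 matches, so a match there is common. AGATAA, letters that GATA factors bind, searched on both strands and able to share at most 1 base with GGAA, was in none of the 6 windows and in 9.99% of all promoters.

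Compared per length, as CPM per kb of the union of each gene's exons over all 27 mice, *Clec4g* was the most abundant at 12.7 ± 2.65 (SD). *Oit3* (6.16 ± 1.32), *Stab2* (5.76 ± 1.17) and *Stab1* (5.56 ± 0.993) followed. *Kdr* (3.91 ± 1.02), *Lyve1* (3.74 ± 1.31) and *Fcgr2b* (3.53 ± 0.832) lay close together, and *Flt4* (2.76 ± 0.612) and *Pecam1* (2.57 ± 0.479) were lowest. Apart from the steps from *Clec4g* to *Oit3* and from *Stab1* to *Kdr*, neighbors in this order differed by less than the larger of their SDs. *Lyve1* varied most between mice, with a highest CPM 3.80 times its lowest, and *Pecam1* least, at 2.06 times.

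**Figure D1:**
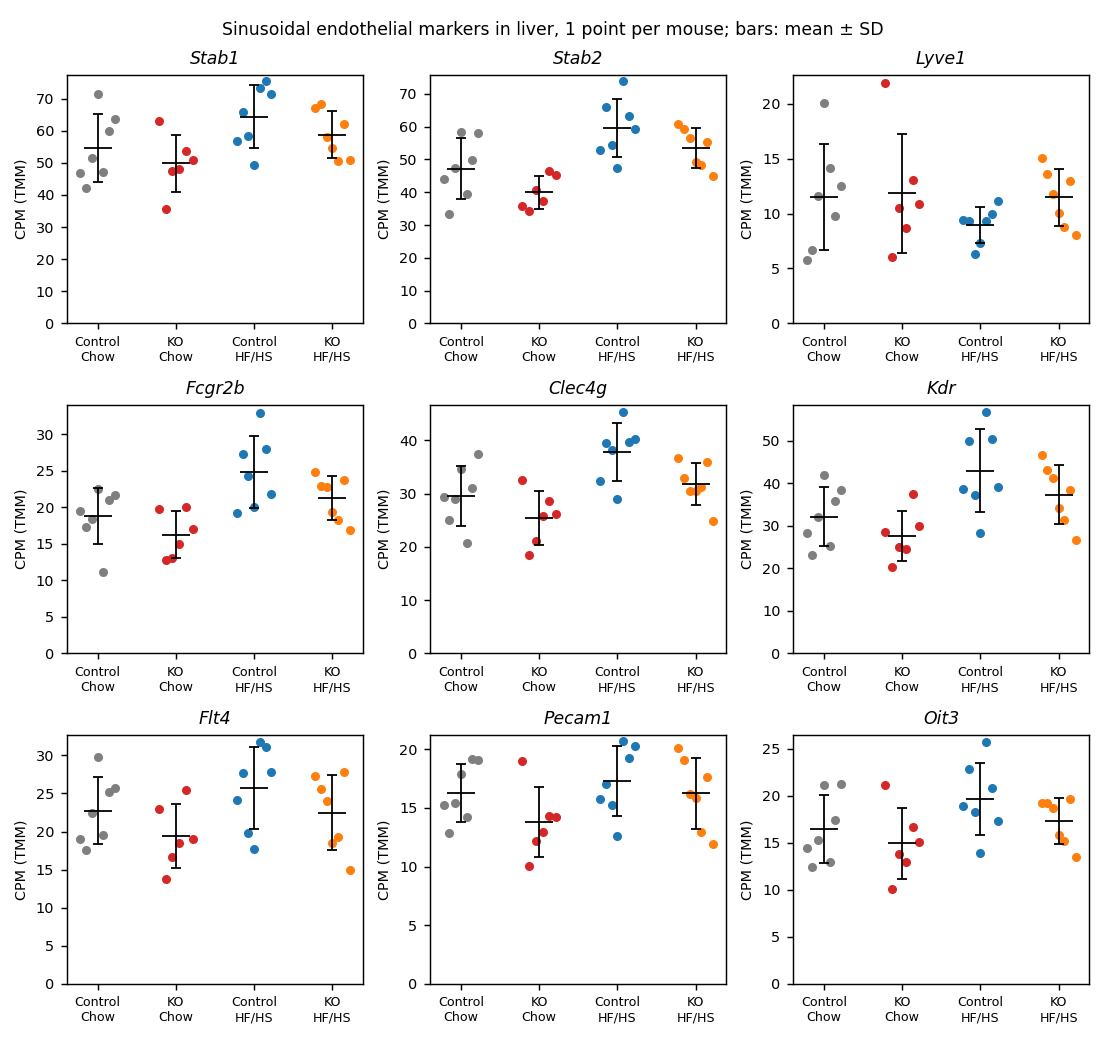
TMM-scaled CPM of each marker (y axis, from 0) in the 4 groups (x axis), with 1 point per mouse and bars for the mean ± SD (n = 7, 6, 7 and 7). For 8 of the 9 markers the control mice on HF/HS had the highest mean, and *Lyve1* had its lowest mean there.

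The group means of 6 markers (*Stab1*, *Stab2*, *Fcgr2b*, *Clec4g*, *Kdr*, *Oit3*) had the same order, which was controls on HF/HS, HGFAC-KO mice on HF/HS, controls on chow and HGFAC-KO mice on chow. *Flt4* and *Pecam1* had the 2 groups in the middle exchanged, and *Lyve1* had controls on HF/HS lowest. Neighboring groups in these orders differed by less than the larger of their SDs in 26 of 27 cases over the 9 genes. The highest group mean was 1.25 times the lowest for *Pecam1* and 1.55 times for *Kdr*.

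Among the scavenger and endocytic receptors, *Stab2* encodes stabilin-2, which takes up hyaluronan. In the controls it ran from 33.3 to 58.3 CPM on chow (median 47.3) and from 47.4 to 73.9 on HF/HS (median 59.4). In the HGFAC-KO mice it ran from 34.3 to 46.6 on chow (median 38.9) and from 44.9 to 60.9 on HF/HS (median 55.2). Of the 7 HGFAC-KO mice on HF/HS, 6 lay above every HGFAC-KO mouse on chow, while the control groups overlapped more widely. *Stab1*, the related stabilin-1, ran from 42.2 to 71.4 CPM on chow (median 51.5) and from 49.4 to 75.6 on HF/HS (median 65.9) in the controls. In the HGFAC-KO mice *Stab1* ran from 35.7 to 63.1 on chow (median 49.6) and from 50.6 to 68.3 on HF/HS (median 58.1). All 4 groups of *Stab1* overlapped.

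*Fcgr2b* encodes the inhibitory Fc receptor with which the sinusoidal endothelium takes up immune complexes. In the controls it ran from 11.1 to 22.5 CPM on chow (median 19.4) and from 19.2 to 32.9 on HF/HS (median 24.2). Its range in the HGFAC-KO mice was 12.7 to 20.1 on chow and from 16.9 to 24.9 on HF/HS (median 22.8). In each genotype 4 of 7 mice on HF/HS were above all mice on chow. *Clec4g*, a C-type lectin of the sinusoidal endothelium, ran from 20.7 to 37.4 CPM on chow (median 29.3) and from 28.9 to 45.3 on HF/HS (median 39.5) in the controls. In the knockouts *Clec4g* ran from 18.4 to 32.6 on chow (median 26.0) and from 24.8 to 36.7 on HF/HS (median 31.3). On HF/HS, 5 of 7 controls exceeded all controls on chow for this gene, and 3 of 7 HGFAC-KO mice exceeded all HGFAC-KO mice on chow.

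*Lyve1* encodes a hyaluronan-binding receptor. In the controls it ran from 5.75 to 20.0 CPM on chow (median 11.6) and from 6.30 to 11.1 on HF/HS (median 9.36). The HGFAC-KO mice had from 6.06 to 21.9 on chow (median 10.7) and from 8.08 to 15.1 on HF/HS (median 11.8). The chow groups each held 1 mouse near 20 CPM, control 4 and HGFAC-KO mouse 1, and the controls on HF/HS were the narrowest group.

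Of the VEGF receptors, *Kdr* encodes the main signaling receptor for VEGF-A. In the controls it ran from 23.2 to 42.1 CPM on chow (median 32.1) and from 28.4 to 56.7 on HF/HS (median 39.2). In the HGFAC-KO mice it ran from 20.2 to 37.6 on chow (median 26.8) and from 26.7 to 46.6 on HF/HS (median 38.3). On HF/HS, 3 of 7 controls and 4 of 7 HGFAC-KO mice were above every mouse of their genotype on chow. *Flt4* encodes the receptor for VEGF-C and VEGF-D. It ran from 17.5 to 29.8 CPM in controls on chow, 13.8 to 25.4 in HGFAC-KO mice on chow, 17.7 to 31.8 in controls on HF/HS and 14.9 to 27.8 in HGFAC-KO mice on HF/HS. All 4 groups of *Flt4* overlapped.

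*Pecam1* encodes an adhesion molecule of endothelial junctions. It ran from 12.9 to 19.2 CPM in controls on chow, 10.1 to 19.0 in HGFAC-KO mice on chow, 12.6 to 20.7 in controls on HF/HS and 11.9 to 20.1 in HGFAC-KO mice on HF/HS. *Oit3* encodes a secreted protein with a zona pellucida domain. It ran from 12.4 to 21.2 CPM in controls on chow, 10.1 to 21.1 in HGFAC-KO mice on chow, 13.9 to 25.7 in controls on HF/HS and 13.4 to 19.7 in HGFAC-KO mice on HF/HS. The groups of *Pecam1* and of *Oit3* overlapped in every comparison.

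On HF/HS diet most markers had higher values than on chow in each genotype. Because the markers varied together from mouse to mouse, counts of markers, here and below, are not counts of independent results. In the controls 8 of the 9 markers had positive fold changes, with a median log2 fold change over the 9 of 0.26, where 51.1% of all genes tested were positive and their median was 0.00. *Kdr* (log2 fold change 0.41 ± 0.16, SE), *Fcgr2b* (0.40 ± 0.15), *Clec4g* (0.35 ± 0.12) and *Stab2* (0.33 ± 0.12) were farthest from 0 among the positive ones. None of the 9 passed the edgeR quasi-likelihood test at an adjusted p of 0.05, while 4.93% of all genes were called higher. *Clec4g* came closest (adjusted p = 0.0766), ahead of *Stab2* (0.0962), *Fcgr2b* (0.1002) and *Kdr* (0.111). The unadjusted p was under 0.05 for these 4 markers and for 25.4% of all genes. The two-sided exact permutation test gave p = 0.0210 for *Clec4g*, 0.0239 for *Fcgr2b*, 0.0262 for *Stab2* and 0.0396 for *Kdr*, unadjusted over 36 such tests. DESeq2 called *Fcgr2b* (adjusted p = 0.0487) and *Clec4g* (0.0362), and limma voom called none. *Clec4g* was also called by edgeR without control 7 on chow (adjusted p = 0.0394) or without control 4 on HF/HS (0.0319), and *Kdr* without the latter (0.0362).

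In the HGFAC-KO mice 8 of the 9 markers were likewise positive, with a median of 0.24 against 0.00 over all genes. *Stab2* rose by 0.42 ± 0.09 on the log2 scale (33.6%; edgeR adjusted p = 0.0124), and it was the 1 marker called, where 3.17% of all genes were called higher. Its exact permutation p was 0.00291. *Stab2* remained past the threshold in each of the 7 other analyses and in each of the 13 fits that left out a mouse, with adjusted p up to 0.0358. *Kdr* (0.43 ± 0.15, adjusted p = 0.0926), *Fcgr2b* (0.38 ± 0.13, 0.0844) and *Clec4g* (0.32 ± 0.12, 0.131) had similar fold changes and did not pass. DESeq2 added *Fcgr2b* (adjusted p = 0.0396) and *Kdr* (0.0402), the replicate block added *Clec4g* (0.0412), and *Kdr* passed in edgeR without HGFAC-KO mouse 5 on chow (0.0375).

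Averaged over the genotypes in a fit of all 27 mice, a comparison added after these values had been seen, 5 of 9 markers were called higher and none lower, where 12.1% of all genes were called higher. These were *Kdr* (0.43 ± 0.11, adjusted p = 0.00780), *Fcgr2b* (0.39 ± 0.10, 0.00640), *Stab2* (0.38 ± 0.08, 0.00117), *Clec4g* (0.34 ± 0.09, 0.00755) and *Stab1* (0.24 ± 0.09, 0.0476). In linear terms the rises were between 17.8% for *Stab1* and 34.3% for *Kdr*. The first 4 were called in each of 6 other analyses and without each of the 27 mice. The call of *Stab1* was lost with upper-quartile normalization (adjusted p = 0.0652), with no filter on low counts (0.0668), with the replicate block (0.0725), and in 17 of 27 fits that left out a mouse, up to 0.0914 without HGFAC-KO mouse 2 on chow and at 0.0716 without control 7 on HF/HS. *Oit3* (0.24 ± 0.11, adjusted p = 0.112), *Flt4* (0.20 ± 0.11, 0.220) and *Pecam1* (0.16 ± 0.10, 0.233) were positive without passing, and *Oit3* passed without HGFAC-KO mouse 1 on chow (0.0361). By role, 4 of the 5 scavenger and endocytic receptors, 1 of the 2 VEGF receptors and 0 of the 2 junctional and secreted members were called.

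**Figure D2:**
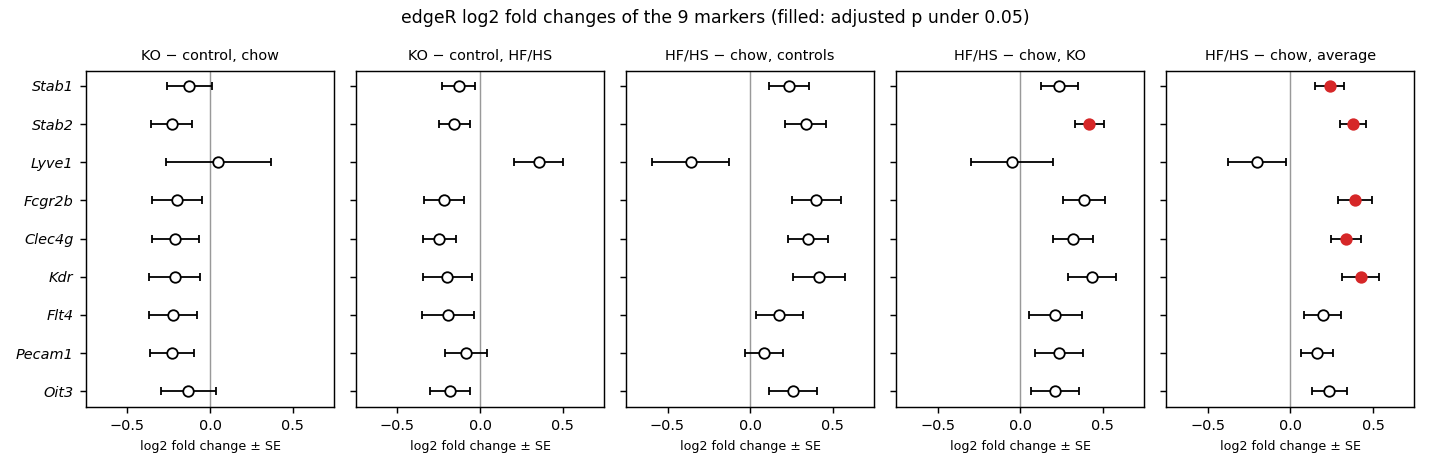
edgeR log2 fold changes (x axis) with their SE for the 9 markers (y axis), for HGFAC-KO over control on each diet, HF/HS over chow in each genotype, and HF/HS over chow averaged over genotypes, with filled points for an adjusted p under 0.05. *Stab2* is filled in the HGFAC-KO mice and *Kdr*, *Fcgr2b*, *Stab2*, *Clec4g* and *Stab1* in the average, while *Lyve1* lies on the other side of 0 from the rest in each panel.

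HGFAC-KO mice had lower values than controls of the same diet for 8 of the 9 markers, and no difference passed. On chow the median log2 fold change over the 9 was -0.21, against 0.00 over all genes, and the fold changes ran from -0.23 for *Stab2* and *Pecam1* to 0.05 for *Lyve1*. edgeR called none of the 9 (lowest adjusted p = 0.806, *Stab2*), with 0.00737% of all genes called in either direction, and no marker had an unadjusted p under 0.05, as 5.98% of all genes did. On HF/HS the median was -0.18, and edgeR again called none, with 0.0148% of all genes called. The unadjusted p was under 0.05 for *Clec4g* (-0.25 ± 0.10, adjusted p = 0.452) and *Lyve1* (0.35 ± 0.15, adjusted p = 0.480), as for 9.64% of all genes. By the exact permutation test these 2 had p = 0.0425 and 0.0629. DESeq2 and limma voom also called none of the 9 on either diet.

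Averaged over the diets, again a comparison added after the values were seen, none of the 9 was called in edgeR, DESeq2 or limma voom, where edgeR called 0.1% of all genes (14 of 13932). *Clec4g* (-0.23 ± 0.09, adjusted p = 0.268), *Stab2* (-0.20 ± 0.08, 0.295) and *Fcgr2b* (-0.21 ± 0.10, 0.381) had unadjusted p under 0.05, as did 12.7% of all genes. The sign of the 8 negative markers was kept on each diet in the 7 other analyses and in every fit without 1 mouse, but their size was not. On chow *Stab1* ran from -0.21 without HGFAC-KO mouse 1 to -0.04 without HGFAC-KO mouse 2, and *Oit3* from -0.26 to -0.04 without the same mice. On HF/HS *Pecam1* ran from -0.15 without HGFAC-KO mouse 1 to -0.02 without HGFAC-KO mouse 7. *Alb*, which encodes albumin and was called higher in HGFAC-KO mice in the average over the diets (0.30 ± 0.05, edgeR adjusted p = 0.0304), but not on either diet alone nor in every average that left out a mouse (without HGFAC-KO mouse 1 on chow edgeR called no gene higher and 1 lower), had 60389 ± 4190 CPM (SD) in controls and 69340 ± 3789 in HGFAC-KO mice on chow, and 59424 ± 6937 and 78097 ± 8735 on HF/HS. Of the 10 hepatocyte markers 5 were positive in that average, with a median log2 fold change of 0.01, and their summed CPM, most of it *Alb*, overlapped between the genotypes on each diet. The part of *Alb* in the values of the markers was not tested. Log2 fold changes of several other lists also lay mostly below 0 on chow, with no gene of them called in edgeR on either diet. On chow 3 of 15 other sinusoidal endothelial genes tested were positive (median -0.21), as were 5 of 26 general endothelial genes (-0.08) and 0 of 12 Kupffer cell markers (-0.23). On HF/HS these counts were 2 of 15 (-0.19), 3 of 26 (-0.13) and 7 of 12 (0.02). Unadjusted p was under 0.05 for 3, 4 and 1 genes of these 3 lists on chow (5.98% of all genes) and for 5, 3 and 0 on HF/HS (9.64%). Of genes that mark central or portal endothelium, 3 of 10 were positive on chow (-0.16) and 3 of 10 on HF/HS (-0.17). Large-vessel and capillary genes had 2 of 7 (-0.09) and 4 of 7 (0.06). Stellate cell markers had 3 of 13 (-0.07) and 7 of 13 (0.07), and leukocyte markers 3 of 11 (-0.03) and 7 of 11 (0.04). Of all genes, 51.2% were positive on chow and 49.5% on HF/HS. The part of Kupffer, stellate or leukocyte RNA in the values of the markers was not tested.

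The test of a genotype by diet interaction called none of the 9 markers in edgeR, DESeq2 or limma voom, where 0.0% of 13932 genes were called. No marker had an unadjusted p under 0.05, as 3.63% of genes did. The interaction terms ran from -0.05 for *Oit3* to 0.31 ± 0.36 for *Lyve1* on the log2 scale, and the lowest adjusted p was 0.984. The call of *Stab2* in the HGFAC-KO mice and its absence in the controls is therefore not shown to be a difference between the genotypes (interaction 0.08 ± 0.16, adjusted p = 0.985).

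*Lyve1* stood apart from the other 8 markers in direction. Its log2 fold change with HF/HS was -0.36 ± 0.23 in the controls (edgeR adjusted p = 0.362) and -0.05 ± 0.25 in the HGFAC-KO mice (0.931), and with the knockout 0.05 ± 0.32 on chow (0.980) and 0.35 ± 0.15 on HF/HS. Without HGFAC-KO mouse 1 on chow, its highest value, *Lyve1* turned to -0.22 with the knockout on chow and to 0.21 with HF/HS in the HGFAC-KO mice. The sign on chow also turned without control 1 (-0.06) or control 2 (-0.05), and the sign in the HGFAC-KO mice without mouse 5 (0.00) or mouse 7 (0.02) on HF/HS. Set against the mean log2 CPM of the other 8 in the same mouse, a measure formed after the values were seen and given with no test, *Lyve1* lay at -1.87 ± 0.25 (SD, n = 7) in controls on HF/HS and at -1.35 ± 0.12 (n = 7) in HGFAC-KO mice on HF/HS. The ranges, -2.23 to -1.56 and -1.53 to -1.18, were 0.04 apart. Of 13923 other genes set against the same mean, 0.0934% (13) had HF/HS groups that did not overlap, and since the measure carries the spread of the 8 markers into genes that do not vary with them, that share is no like-for-like background for *Lyve1*. On chow the same difference was -1.31 ± 0.54 (n = 7) in controls and -1.07 ± 0.39 (n = 6) in HGFAC-KO mice, with wide overlap.

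**Figure D3:**
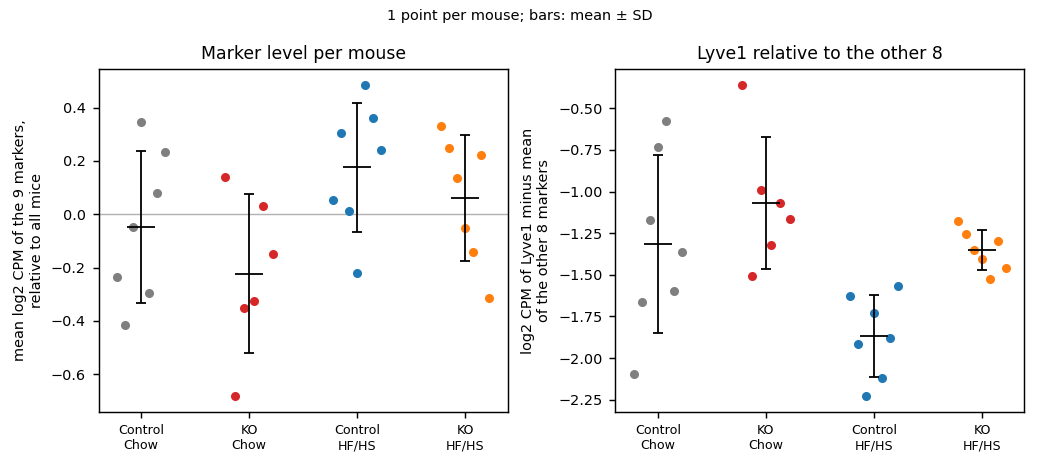
Left, mean log2 CPM of the 9 markers relative to the mean of all mice, and right, log2 CPM of *Lyve1* minus the mean of the other 8 markers (y axes), by group (x axes), with 1 point per mouse and bars for the mean ± SD. The groups overlap on the left, where controls on HF/HS have the highest mean (0.18) and HGFAC-KO mice on chow the lowest (-0.22), and on the right the HF/HS groups lie 0.04 apart at their nearest mice.

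Averaged over the 9 markers as log2 CPM relative to the mean of all mice, the level was 0.18 ± 0.24 (SD) in controls on HF/HS, 0.06 ± 0.24 in HGFAC-KO mice on HF/HS, -0.05 ± 0.28 in controls on chow and -0.22 ± 0.30 in HGFAC-KO mice on chow. Within a group, mice ranged as widely as the groups differed. The lowest mouse was HGFAC-KO mouse 2 on chow (-0.68) and the highest was control 5 on HF/HS (0.49). In summed CPM the 9 markers ran from 191 to 318 in controls on chow, 161 to 265 in HGFAC-KO mice on chow, 226 to 370 in controls on HF/HS and 213 to 318 in HGFAC-KO mice on HF/HS.

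With each group's mean subtracted, the markers varied together from mouse to mouse. Pearson's r of log2 CPM over the 27 mice ran from 0.38 to 0.93 in the 36 pairs, with a median of 0.82, and Spearman's rho from 0.48 to 0.93. *Stab2* with *Kdr* (r = 0.93, rho = 0.93), *Stab1* with *Pecam1* (r = 0.92, rho = 0.93) and *Kdr* with *Flt4* (r = 0.92, rho = 0.91) were closest. Each of these had a permutation p of 1e-05, the smallest that 100000 permutations within groups can give, and an adjusted p of 1.57e-05 over the 36 pairs. For r, 35 of 36 pairs passed an adjusted p of 0.05, the exception being *Lyve1* with *Fcgr2b* (r = 0.38, adjusted permutation p = 0.0893), and for rho all 36 did. The 28 pairs without *Lyve1* had r of at least 0.71, and the 8 pairs with it a median of 0.68. Without the 2 mice farthest from the median of the first gene of each pair, r ran from 0.38 to 0.95. Within the single groups of 6 or 7 mice the median r over the pairs was between 0.84 and 0.94, and some pairs were weak. In the HGFAC-KO mice on chow *Stab2* had r of 0.18 with *Pecam1*, 0.21 with *Lyve1*, 0.30 with *Clec4g*, 0.31 with *Oit3* and 0.35 with *Stab1*. *Lyve1* had r of -0.01 with *Fcgr2b* and 0.22 with *Clec4g* in the controls on chow, and 0.17 with *Fcgr2b* in the controls on HF/HS. The values of a mouse share its library, its depth and its scaling factor, and the share of passing pairs among other genes is not given here.

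**Figure D4:**
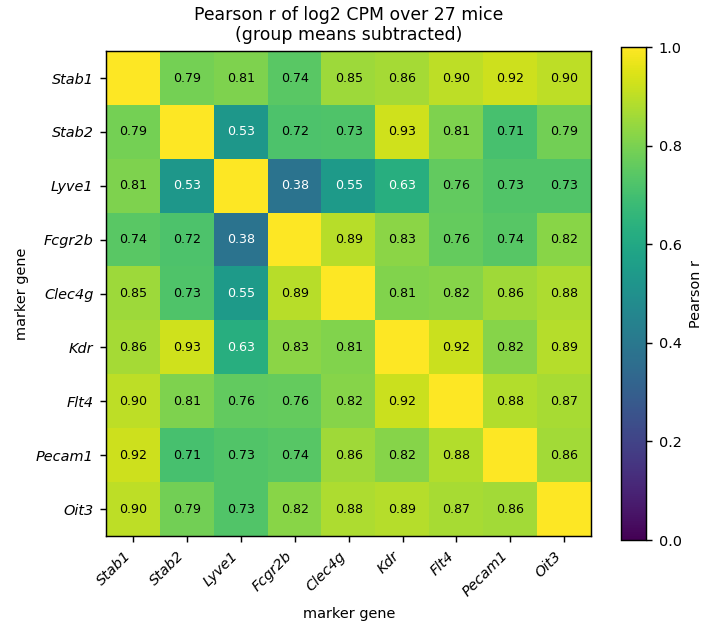
Pearson's r of log2 CPM between each pair of the 9 markers (both axes) over 27 mice after subtraction of group means, with the color scale from 0 to 1. The row of *Lyve1* is the lowest, down to 0.38 with *Fcgr2b*, and *Stab2* with *Kdr* is the highest at 0.93.

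The other genes of the table whose pattern was most like that of the 9 markers, by Pearson's r over the 27 mice with the mean of the 9 after subtraction of group means, were *Cdh5* (0.95), *Sema6a* (0.94), *Plxnd1* (0.93), *Gpr182* (0.93), *Rgl1* (0.92), *Adgrl4* (0.91), *Fyn* (0.91), *Gimap6* (0.91), *Mrc1* (0.91) and *Mmrn2* (0.90). *Cdh5*, which encodes the cadherin of endothelial junctions, ranked highest of 13923 genes. *Gpr182* and *Mrc1*, the mannose receptor, were on the list of other sinusoidal endothelial genes, and *Cdh5*, *Adgrl4* and *Mmrn2* on that of general endothelial genes. The median r of a list was 0.70 for the 16 other sinusoidal endothelial genes and 0.69 for 26 general endothelial genes, with single genes of the former down to -0.22 (*Wnt9b*). It was 0.16 for 7 large-vessel and capillary genes and 0.05 for 3 lymphatic endothelial genes. For other cells it was 0.42 for 12 Kupffer cell markers, 0.19 for 13 stellate cell markers, 0.17 for 11 leukocyte markers and 0.05 for 10 hepatocyte markers, against -0.02 for all genes.

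Further endothelial genes rose with HF/HS in part. In the average over genotypes, 6 of 16 other sinusoidal endothelial genes and 7 of 26 general endothelial genes were called higher and none lower, where 12.1% of all genes were called higher and 11.4% lower, with medians of 0.15 and 0.17 against 0.00 for all genes. Among the former were *Plxnc1* (0.62 ± 0.12, edgeR adjusted p = 0.000628), *Dnase1l3*, a secreted deoxyribonuclease (0.38 ± 0.09, 0.00264), and *Tspan7* (0.36 ± 0.08, 0.00210). Among the latter were *Flt1*, another VEGF receptor (0.39 ± 0.10, 0.00534), *Tek*, the angiopoietin receptor (0.38 ± 0.10, 0.00605), and *Aqp1*, a water channel (0.26 ± 0.07, 0.0113). Of 7 large-vessel and capillary genes that were tested, 2 were called higher, *Vcam1* (0.83 ± 0.21, 0.00477) and *Selp* (0.27 ± 0.06, 0.00117), which both encode adhesion molecules for leukocytes. Of the 7, 4 were positive with a median of 0.08, and *Cd34* (-0.23 ± 0.15, adjusted p = 0.307) was called lower with HF/HS in the controls (-0.55 ± 0.15, 0.0251).

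Around the VEGF receptors among the markers, 6 ligands and co-receptors were tested, and 1 was called higher and 2 lower with HF/HS in the average (12.1% and 11.4% of all genes). The one called higher, *Nrp1*, a co-receptor, had 80.9 ± 6.31 CPM (SD) in controls on chow and 117 ± 20.1 on HF/HS, and 81.0 ± 19.6 and 110 ± 6.26 in HGFAC-KO mice (0.49 ± 0.08, edgeR adjusted p = 6.59e-05). *Vegfb* fell, with 13.7 ± 0.890 CPM on chow against 8.76 ± 2.83 on HF/HS in controls, and 14.3 ± 3.24 against 9.61 ± 1.49 in HGFAC-KO mice (-0.61 ± 0.11, 0.000305). *Vegfd*, a ligand of the product of *Flt4*, also fell (-0.67 ± 0.14, 0.000823). In a list of 10 genes of angiopoietin, Notch and ephrin signaling, which leaves out *Tek*, counted above among the general endothelial genes, none was called with the diet averaged over genotypes in edgeR, nor had any an unadjusted p under 0.05 there, and 1, the Notch target *Hes1*, was called higher in HGFAC-KO mice averaged over the diets (0.64 ± 0.11, adjusted p = 0.0198), where 0.1% of all genes were called, but not on either diet alone nor in the average without HGFAC-KO mouse 1 on chow. Within the 6 genes of the HGF axis, *Hgf* (0.72 ± 0.15, 0.00103), *Met* (0.30 ± 0.07, 0.00410) and *Hgfac* (0.36 ± 0.05, 1.52e-06) rose with HF/HS in the average.

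Markers of other liver cells moved with HF/HS as well, and their counts stand against 12.1% of all genes called higher and 11.4% lower. In the average 8 of 12 Kupffer cell markers were called higher and none lower, among them *Clec4f* (0.55 ± 0.10, adjusted p = 0.000168), *Folr2* (0.57 ± 0.12, 0.000730) and *Cd68* (0.43 ± 0.09, 0.00111), with a list median of 0.39 against 0.24 for the 9 markers. Within the HGFAC-KO mice 8 of the 12 were called higher (3.17% of all genes), and within controls none was by edgeR (4.93% of all genes), where 4 had an unadjusted p under 0.05. The interaction called none of the 12, so a difference between the genotypes is not shown. The summed CPM of the 12 ran from 201 to 414 in controls on chow, 194 to 295 in HGFAC-KO mice on chow, 251 to 513 in controls on HF/HS and 272 to 422 in HGFAC-KO mice on HF/HS. Of 11 leukocyte markers 4 were called higher, among them *Ccr2* (0.93 ± 0.20, 0.00129), *S100a8* (1.30 ± 0.30, 0.00262) and *S100a9* (1.26 ± 0.29, 0.00268). Of 13 stellate cell markers 3 were called higher, including *Reln* (0.44 ± 0.11, 0.00730) and *Rgs5* (0.46 ± 0.14, 0.0224), and *Lrat*, the enzyme that esterifies retinol, was called lower (-0.39 ± 0.12, 0.0157). Of 10 hepatocyte markers 3 were called lower (*Tat*, *Tdo2*, *Hpd*) and 1 higher. The part of these cells in the rise of the 9 markers was not tested.

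**Figure D5:**
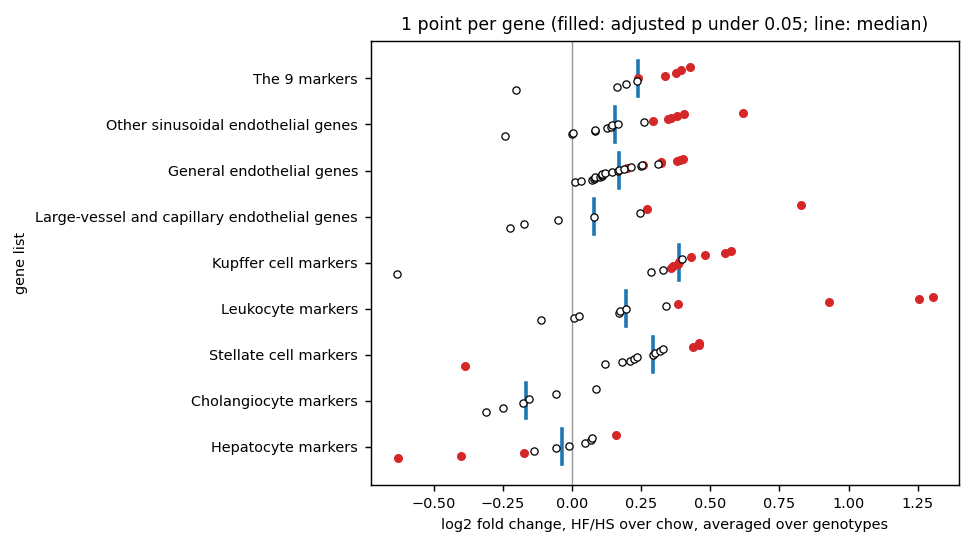
edgeR log2 fold changes for HF/HS over chow averaged over genotypes (x axis), with 1 point per gene for the 9 markers and 8 other lists (y axis), filled for an adjusted p under 0.05, and a line at each list's median. The median is 0.24 for the 9 markers, 0.17 for general endothelial genes, 0.39 for Kupffer cell markers and -0.03 for hepatocyte markers.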

How the data were processed

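RNA of snap-frozen liver was made into stranded mRNA libraries and sequenced as paired ends. The authors aligned the reads to GRCm38 (mm10) with HISAT2, counted them per gene with featureCounts 1.6.3 (version from the submitters' processing notes) and deposited raw counts of all 27 mice in 1 table. The annotation and strand setting of the counting are not given in the sources used here. Exons of 4 markers (*Clec4g*, *Fcgr2b*, *Stab1*, *Stab2*) share 1.09% to 5.93% of their bases with a gene on the opposite strand. Rows with no gene name (3886 of 27179, with 4.13% to 12.1% of a library's counts) were left out, and 191 rows of 89 repeated symbols were summed.

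Genes were tested on the whole table in R 4.3.3 with edgeR 4.0.16 (TMM, filterByExpr with minimum count 10 and total 15, robust quasi-likelihood fit, Benjamini-Hochberg adjustment, threshold 0.05). All 9 markers passed the filter. Genotypes were compared within a diet and diets within a genotype on the mice of these groups, and the interaction over all mice. Permutation tests used log2 CPM with a prior count of 2. Alternatives were DESeq2 1.42.0, limma 3.58.1 voom, upper-quartile normalization, no filter, at least 10 counts in every library, a replicate block, a fit of all mice, a prior count of 0.5 for the permutation tests, and leaving out each mouse. The averages over genotypes or diets were added after the values were seen. The fits were tested on simulated data. In counts simulated for the genotype comparison on chow, 200 of 13521 genes were changed by 1 on the log2 scale. All 200 were called by edgeR with 11 others, by limma voom with 9 others and by DESeq2 with 27 others. For the comparison on HF/HS DESeq2 called 25 others and edgeR 11. All genes were simulated with the same dispersion, so the spread of each marker was not reproduced. Changes as small as those of the markers were not simulated. Named genes were the 9 markers, up to 3 called genes with the smallest p of each other list, the 10 genes most like the markers, and *Hgfac*. Outside this rule, *Wnt9b* was named for the lowest r of its list and *Ccl21a* for having no count. The lists were written by hand and share some genes, and the markers and lists were chosen with earlier results of these data known. Replicates were separately numbered livers, and the labels name no batch. Coordinates and exons are from GENCODE vM21 (GRCm38), promoters from RefSeq.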

Additional observations from a re-analysis of the deposited data

Results flagged for a closer look

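No mouse stood apart by Dixon's criterion in any of the 36 sets of values (9 markers in 4 groups), and no marker passed the test of a genotype by diet interaction.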

How the results depend on the processing

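The number of markers called was 0 in both genotype comparisons, their average and the interaction under every alternative run. With HF/HS in controls it was 2 with DESeq2 and 0 to 2 when 1 mouse was left out. With HF/HS in HGFAC-KO mice it was 3 with DESeq2, 2 with the replicate block (*Stab2* and *Clec4g*) and 1 to 2 when 1 mouse was left out, and in the average over genotypes it was 4 to 6 when 1 mouse was left out. Shares of all genes called under these diet alternatives are not given, so the counts of markers under them, here and above, have no background. In the simulated counts DESeq2 called more unchanged genes than edgeR. *Lyve1* reversed with HF/HS in HGFAC-KO mice in limma voom (0.033) and with the replicate block (0.10), and when 1 mouse was left out it ran from -0.19 to 0.21 there and from -0.22 to 0.24 with the knockout on chow. The replicate block also ended the call of *Stab1* in the average (adjusted p = 0.0725). The cause was not tested. Replicate numbers were shared by the groups, and paired mice deviated together weakly or not at all (*r* from -0.25 to 0.37, over 0.1 in 0 to 4 of 6 or 7 pairs of a comparison, and best with the own number in 0 to 2). The median *r* was highest, at 0.13, for HF/HS versus chow in HGFAC-KO mice (over 0.1 in 4 of 6 pairs), where the block also changed the calls. A weak pairing is not excluded, and the block was kept as an alternative. The exact permutation test gave p under 0.05 in 9 of 36 tests with either prior count. With 6 or 7 mice per group, the SE of a marker's log2 fold change between single groups was between 0.09 and 0.32, which limits the precision.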

Other observations

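Of 10 genes that mark central or portal endothelium, 2 were called higher with HF/HS averaged over genotypes, where 12.1% of all genes were called higher and 11.4% lower. These were *Msr1*, a scavenger receptor that macrophages also make (0.60 ± 0.11, edgeR adjusted p = 0.000291), and *Kit* (0.50 ± 0.13, 0.00639). Of 4 lymphatic endothelial genes *Ccl21a* had no count in any mouse, and none of the 3 tested was called by edgeR or had an unadjusted p under 0.05. None of 6 cholangiocyte markers was called, with a list median of -0.17 and no unadjusted p under 0.05. Of 4 erythroid markers tested 2 were called lower, *Hba-a2* (-0.80 ± 0.23, 0.0139) and *Hbb-bs* (-0.66 ± 0.24, 0.0476), genes whose near-identical copies share reads.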
